A study of Mus musculus with 13 samples.

Results

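Aortas of mice given BAPN with fasudil were set against aortas of mice given BAPN, to ask what the addition of fasudil did to gene expression in tissue already exposed to BAPN. The libraries were chosen by their treatment labels: 3 of BAPN with fasudil and 3 of BAPN, which made 6 of the 13 libraries of the study. The other 7 libraries, 3 of fasudil and 4 of vehicle, helped to estimate the spread and showed what fasudil did without BAPN. One of the BAPN libraries, replicate 2, was recovered, because its deposited column repeats BAPN replicate 1 with 1 FPKM (fragments per kilobase of transcript, relative to all mapped fragments) added in all 28510 genes. Its values were computed from the authors' BAPN mean and the other columns, and it is called the recovered library throughout. Of 28510 genes with values, 13338 reached 1 FPKM in at least 2 of the 6 libraries and were tested.

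Mice of the combined group drank BAPN (β-aminopropionitrile) at 0.25% in water for 1 week, then BAPN at the same concentration together with fasudil at 150 mg/kg/day. Mice of the BAPN group drank BAPN at 0.25% (12 animals in the arm), those of the fasudil group fasudil at 150 mg/kg/day (10 animals), and those of the vehicle group water (11 animals). The size of the combined arm is not given in the sources used here. Acclimatisation took 1 week and the experiment 4 weeks. The labels give no strain, age, sex or genotype, and do not say which part of the aorta was taken or how many mice went into a library. Nothing in them says that the replicates came from separate animals, and the 3 BAPN samples share 1 number in their titles, so the p-values below measure only the spread between these libraries.

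BAPN blocks the lysyl oxidases, the copper enzymes that crosslink elastin and collagen, and a wall laid down without those crosslinks is prone to tear. Fasudil inhibits the kinases ROCK1 and ROCK2, which act on the actin cytoskeleton. ROCK holds myosin light chain phosphatase in check, and so maintains contraction and actin stress fibres in smooth muscle. The labels describe the combined treatment as a way to induce aortic dissection, a tear within the wall.

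All 6 libraries held the transcripts of a vessel wall. Acta2, smooth muscle actin, had 628, 5072 and 2618 scaled FPKM in BAPN with fasudil, against 2585, 2603 and 1006 in BAPN, and Myh11, smooth muscle myosin, had 122 to 509, against 150 to 293. The libraries of each group differed among themselves. BAPN replicate 1 stood apart on the first principal component of the 6 libraries, which took up 55.8% of the variance (500 most variable genes). Immunoglobulin genes took 10.5% of its FPKM, against at most 0.0234% in each of the other 5. Replicate 1 of BAPN with fasudil stood apart on the second component (27.0%). It was low in muscle and elastic fibre genes and high in Igtp, an interferon-induced GTPase (274, 6.08 and 7.72 scaled FPKM in BAPN with fasudil, against 23.0, 19.3 and 8.95 in BAPN). The recovered library correlated best with replicate 3 of BAPN with fasudil (r = 0.983 over genes), and BAPN replicate 3 with a vehicle library (r = 0.978). Mitochondrial genes took 31.3% to 40.5% of the FPKM in BAPN with fasudil and 23.7% to 42.8% in BAPN. Between 12346 and 12694 genes reached 1 FPKM in BAPN with fasudil, and between 12278 and 13601 in BAPN. The table gives no read counts.

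A single gene passed the threshold between the groups, an adjusted p under 0.05 by limma with Benjamini-Hochberg adjustment, which was 0.0075% of the 13338 tested. It was Sprr1a, and it rose. Without adjustment, 554 genes (4.15%) had a limma p under 0.05, 357 of them higher (2.68%) and 197 lower (1.48%). In 695 genes (5.21%) all 3 libraries of BAPN with fasudil lay above all 3 of BAPN, and in 434 (3.25%) they lay below. Log2 fold changes were above 0 in 49.7% of genes, and their median was -0.0018. The median absolute log2 fold change was 0.13, against median ranges of 0.44 within BAPN with fasudil and 0.43 within BAPN. In 95.8% of genes the groups differed by less than the wider of the within-group ranges. These values are the background against which every count below is read.

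**Figure D1:**
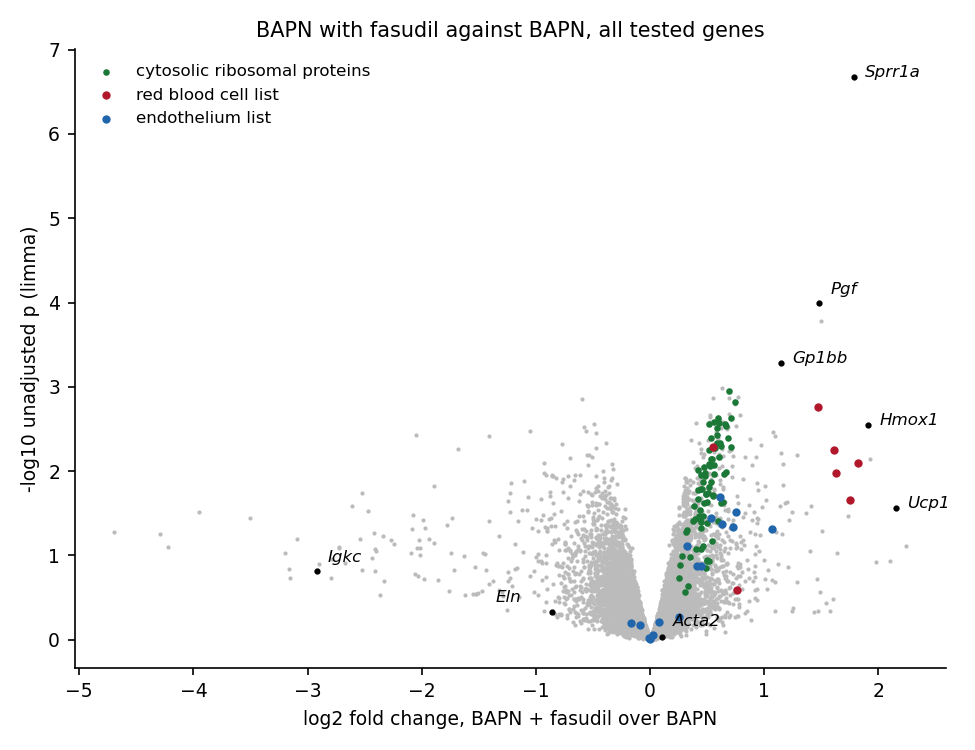
Log2 fold change of BAPN with fasudil over BAPN (x axis) against -log10 of the unadjusted limma p (y axis) for the 13338 tested genes, with ribosomal protein (green), red blood cell (red) and endothelium (blue) genes coloured. Sprr1a, at a log2 fold change of 1.78, is the 1 gene past the adjusted threshold, and the ribosomal protein genes form a compact cloud between 0.25 and 0.74.

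Sprr1a encodes a small proline-rich protein of the cornified envelope of squamous epithelium and is known in rodents as a gene induced in injured neurons. It lies on chromosome 3 at 92391259 to 92393202 on the minus strand, in the coordinates of the deposited table (ENSMUSG00000050359.8). Its level was 2.60, 2.65 and 3.2 scaled FPKM in the 3 libraries of BAPN with fasudil, against 0.0462, 0.220 in the recovered library and 0.0556 in BAPN. The fasudil libraries had 0.379, 0 and 0, and the vehicle libraries at most 0.0817. So the 3 libraries of the combined group were the only ones of the 13 above 1 scaled FPKM, and no other group reached the lowest of them. Sprr1a was tested because these libraries passed the filter, as no BAPN library reached 1 FPKM. Their standing above 1 is thus partly a condition of the test. The log2 fold change of scaled FPKM plus 1 was 1.78 ± 0.16 (SE; limma adjusted p = 0.00284), a scale that understates the change of so low a gene. The values averaged 2.82 ± 0.33 (SD, n = 3) in BAPN with fasudil and 0.107 ± 0.098 (SD, n = 3) in BAPN.

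The call for Sprr1a held in each of the 13 fits that left out 1 library, with adjusted p between 0.00132 and 0.0321, and without the recovered library it was 0.0148. It was lost with a pseudocount of 0.1 in place of 1 (limma adjusted p = 0.837) and in a fit of the 6 libraries alone (limma adjusted p = 0.376), where the other groups no longer add to the estimate of the spread.

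The sequence before the start of Sprr1a is shown because it belongs to the gene that rose. It is the 250 bases upstream of the RefSeq start, chr3:92485882-92486131 in GRCm38.p6, minus strand, a build other than that of the table's coordinates. Capitals mark TGANTCA, the motif bound by AP-1 factors of the Fos and Jun families, which reads the same on both strands. The motif was chosen after this sequence had been seen.

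Sprr1a: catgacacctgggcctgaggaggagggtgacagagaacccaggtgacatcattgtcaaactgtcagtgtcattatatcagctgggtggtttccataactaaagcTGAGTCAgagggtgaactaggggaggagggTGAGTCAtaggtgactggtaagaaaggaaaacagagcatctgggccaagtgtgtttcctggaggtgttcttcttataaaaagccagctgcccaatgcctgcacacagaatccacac

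There were 2 matches, which began 146 and 116 bases before the start. Of 10088 tested genes with a window in the RefSeq table, 572 (5.67%) had at least 1 match in the same 250 bases, and 21 (0.208%) had 2 or more in a window. For Pgf, the gene with the next smallest p, neither of the 2 windows held the motif. Of the 15 leading higher genes defined below, 11 had a window and 1 of these a match, and of the 15 leading lower genes 7 had a window and 1 a match. A match of letters does not show that a factor was bound there.

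Since no other gene passed, the genes described next are the 15 top and 15 bottom genes by log2 fold change among those with an unadjusted limma p under 0.05, groups that did not overlap, and a mean of at least 5 scaled FPKM in the higher group. Those conditions were met by 235 higher and 45 lower genes, and their lack of overlap is part of the choice. The values of these genes are descriptions of 6 libraries.

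Of the 15 leading higher genes, 5 belong to red blood cells. Hba-a2, α-globin, had 3823, 8395 and 8014 scaled FPKM in BAPN with fasudil, against 1890, 1976 (recovered) and 1567 in BAPN. Hbb-bs, β-globin, had 4237, 7173 and 7900, against 2056, 2167 and 1806. Every library of the combined group held more of both globins than any BAPN library, by log2 differences of 1.82 ± 0.57 and 1.63 ± 0.53 (SE). Hba-a1 (1.75 ± 0.66) and Hbb-bt (1.47 ± 0.36) are close copies of these genes, and reads may have been split among the copies. Alas2, the erythroid enzyme that opens haem synthesis and no copy of the globins, had 49.8, 71.6 and 63.4 scaled FPKM in BAPN with fasudil, against 26.6, 18.2 and 14.8 in BAPN, a log2 difference of 1.61 ± 0.47 (SE). Replicate 1 was the lowest of the combined group for all 5 genes.

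The list of red blood cell markers holds 10 genes, of which 7 were tested. All 7 had positive log2 fold changes, with a median of 1.61 beside -0.0018 for all genes, and 0 passed the threshold. In 6 of the 7 the groups did not overlap, beside 5.21% of all genes. Their summed level was 11107 to 21668 scaled FPKM in BAPN with fasudil, 4558 to 5765 in BAPN, 1726 to 9342 in fasudil and 3209 to 7021 in vehicle. Haemoglobin genes took 1.35%, 3.12% and 3.45% of the FPKM in BAPN with fasudil, against 0.928%, 0.942% and 0.628% in BAPN. Slc4a1, the anion exchanger of the red cell membrane, stayed below the filter at 0.384, 0.597 and 0.517, against 0.177, 0.0931 and 0.195. In bulk tissue, more red cells and more transcript per cell cannot be told apart, and this holds for each marker list below. Bpgm, the mutase that makes the oxygen-release regulator bisphosphoglycerate, had 14.1, 19.7 and 21.4, against 12.9, 12.6 and 10.7.

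Platelet genes were also higher in each library sum. Gp1bb, a subunit of the platelet receptor for von Willebrand factor, had 6.13, 5.41 and 3.73 scaled FPKM in BAPN with fasudil, against 1.72, 1.85 and 1.57 in BAPN (log2 fold change 1.15 ± 0.24, SE). Its gene overlaps Septin5 on the same strand, which had a mean of 28.7 FPKM. Itga2b, the platelet integrin chain, had 5.34, 3.71 and 3.07, against 2.69, 2.03 and 2.76. All 5 tested platelet genes of 7 listed were higher (median 0.70), and the groups did not overlap in 2, beside 5.21% of all genes. The list summed to 57.6, 36.4 and 71.7 in BAPN with fasudil, against 27.6, 33.3 and 34.3 in BAPN. Gp1ba, the partner of Gp1bb in the receptor, stayed under 1 FPKM in every library. Its groups overlapped, at 0.404, 0.463 and 0.283, against 0.539, 0.237 and 0.445. Treml1, also listed but below the filter, overlapped too, at 0.984, 0.223 and 0.383, against 0.193, 0.254 and 0.806.

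**Figure D2:**
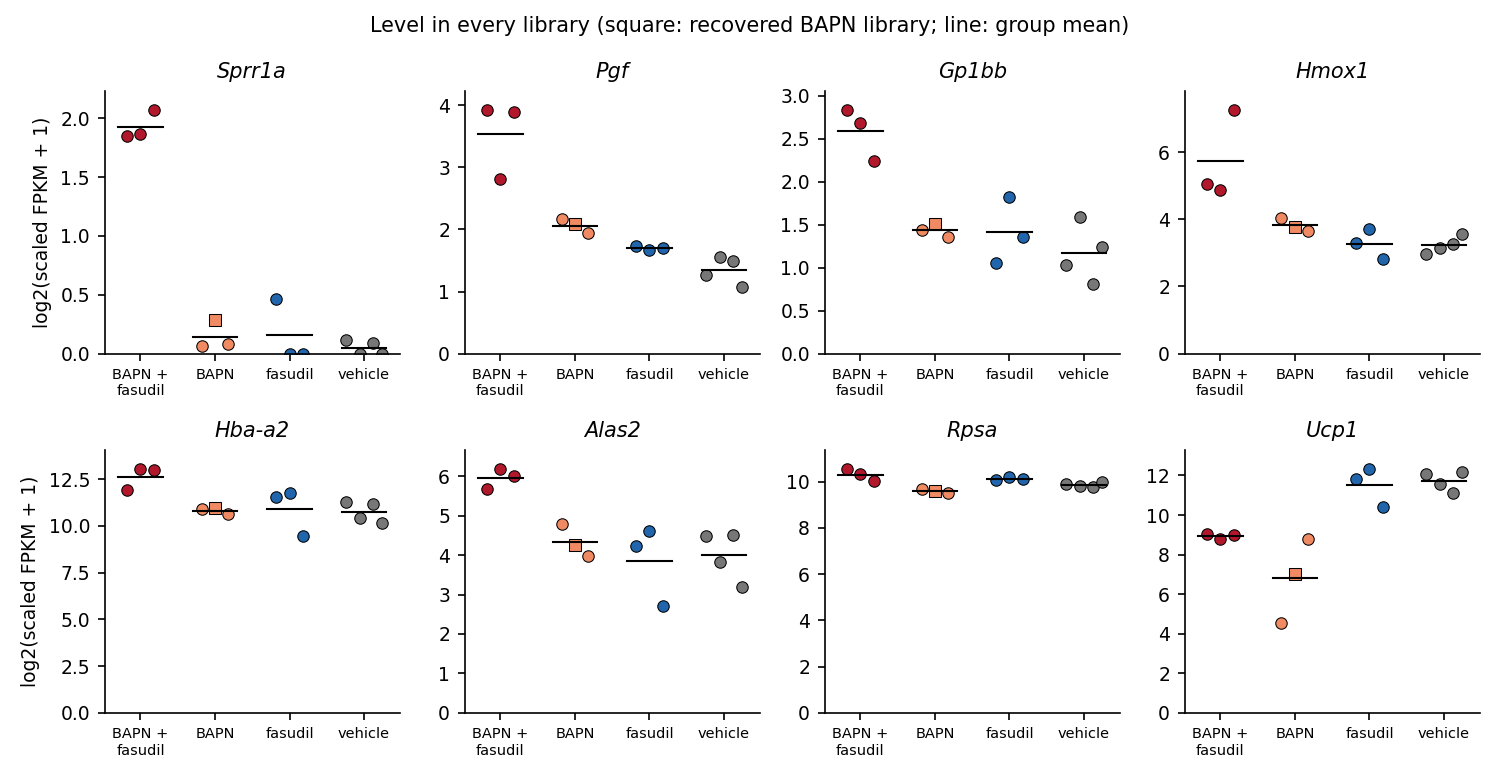
Level of 8 genes in each of the 13 libraries, as log2 of scaled FPKM plus 1 (y axis), by group (x axis, BAPN with fasudil first). Lines are group means and the square is the recovered library. For Sprr1a, Pgf, Gp1bb, Hmox1, Hba-a2 and Alas2 the 3 points of BAPN with fasudil lie above the 3 of BAPN and the 3 of fasudil, while Ucp1 spans 22.1 to 449 scaled FPKM within BAPN.

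Hmox1, the enzyme that breaks down haem, had 32.4, 28.3 and 153 scaled FPKM in BAPN with fasudil, against 15.4, 12.7 and 11.7 in BAPN. Its log2 fold change was 1.91 ± 0.50 (SE), and 1.15 without replicate 3 of BAPN with fasudil. The list of oxidative stress and haem breakdown to which it belongs had 17 of 21 tested members above 0, with a median of 0.25. In 4 of the 21 the groups did not overlap, all of them higher, beside 5.21% of all genes. Mt1, a metallothionein that binds zinc and copper, had 1734, 667 and 678, against 618, 398 and 524, and its log2 fold change of 0.87 became 0.45 without replicate 1 of BAPN with fasudil. Both genes were thus higher in all 3 libraries of BAPN with fasudil, but a different library carried the size of each.

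Pgf, placental growth factor, a ligand of the VEGF receptor FLT1, had the smallest p after Sprr1a. Its level was 14.2, 6.04 and 13.9 scaled FPKM in BAPN with fasudil, against 3.48, 3.23 and 2.85 in BAPN. The fasudil libraries held 2.17 to 2.33 and the vehicle libraries 1.11 to 1.96, so the 13 libraries fell into an order by group with no overlap. The log2 fold change was 1.48 ± 0.25 (SE; limma adjusted p = 0.666), and Pgf passed the threshold without replicate 2 of BAPN with fasudil (1.86, limma adjusted p = 0.00478).

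Zbtb16, a zinc finger transcription factor, had 17.5, 4.10 and 4.85 scaled FPKM in BAPN with fasudil, against 1.00, 1.03 and 1.46 in BAPN. Without BAPN its levels were 1.44 to 11.5 in fasudil and 3.10 to 8.15 in vehicle, so the 3 BAPN libraries were low among the 13, beside 1 fasudil library at 1.44. Atf3, a stress-induced transcription factor, had 39.1, 10.6 and 8.29, against 6.72, 3.59 and 6.09. Dusp10, a phosphatase of p38 and JNK, had 22.8, 9.14 and 7.08, against 3.16, 4.89 and 4.52. In these 3 genes replicate 1 was the highest of the combined group, and leaving it out gave log2 fold changes of 1.37 for Zbtb16, 0.75 for Atf3 and 0.85 for Dusp10, beside 1.93, 1.37 and 1.28 with it. The wider list of immediate early genes, which cells induce within minutes of a stimulus, had 20 of 22 tested members above 0 and a median of 0.55. That median became 0.08 on leaving out replicate 1 of BAPN with fasudil and -0.015 with library quality weights. The groups did not overlap in 1 of the 22 members, Atf3, beside 5.21% of all genes.

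Timp4, an inhibitor of matrix metalloproteinases, had 25.1, 13.6 and 17.7 scaled FPKM in BAPN with fasudil, against 5.5, 7.12 and 10.6 in BAPN. Igfbp3, which binds insulin-like growth factors, had 26.7, 50.6 and 32.1, against 15, 12.6 and 19.3. Igfbp3 was also higher in fasudil (7.46 to 34.1) than in vehicle (4.08 to 6.94). Timp1, chosen after its values were seen, had 36.7, 54.5 and 171, against 82.7, 33.2 and 13.8, and its groups overlapped. The pseudogene Rpl36a-ps3 was also among the leading higher genes (37.8, 36.7 and 44.2, against 11.4, 16.9 and 26.4), whose reads may belong to its parent gene.

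Fewer lower genes met these conditions. The 3 with the lowest log2 fold changes were the immunoglobulin segments Iglv1 (log2 fold change -3.50), Igkv14-126 (-2.53) and Igkv1-135 (-2.47), and each rested on BAPN replicate 1. Iglv1, for example, had 0, 0.348 and 0.925 scaled FPKM in BAPN with fasudil, against 452, 1.41 and 2.45 in BAPN. Markers of B and plasma cells summed to 54.8 to 104 in BAPN with fasudil, against 27755, 87.0 and 69.6 in BAPN, and the list's median of -2.37 over 10 tested genes was -0.07 without BAPN replicate 1. Igkc, the κ light chain constant region, chosen after its values were seen, had 39.7, 27.9 and 52.1, against 19982, 38.9 and 32.9. High immunoglobulin levels were thus seen in 1 of the 3 BAPN libraries.

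Me1, the malic enzyme that supplies NADPH for fatty acid synthesis, was another of the leading lower genes and had 21.4, 29.0 and 50.5 scaled FPKM in BAPN with fasudil, against 53.0, 84.0 and 51.5 in BAPN (log2 fold change -0.93 ± 0.39, SE). Adrb3, the β3-adrenergic receptor of adipocytes, had 27.6, 38.4 and 49.6, against 52.4, 95.5 and 65.3 (-0.86 ± 0.29, SE). It is 1 of the 3 members below 0 in the brown adipocyte list, where 10 of 13 tested genes were above 0. Ces1f, a carboxylesterase, had 20.3, 16.8 and 23.3, against 26.3, 38.4 and 50.6. Sc5d, a desaturase late in cholesterol synthesis, had 6.93, 6.51 and 8.42, against 10.3, 10.5 and 10.3. The gap between the groups was narrow for Me1, where the highest library of the combined group (50.5) lay just under the lowest of BAPN (51.5), and wider for Sc5d. The other leading lower genes had log2 fold changes between -0.88 and -0.40: Apcdd1, Vamp1, Cpeb1, Sema4a, Adam17, Mkrn2, Bicdl1 and Prnp. Among them Adam17, the protease that sheds TNF from the cell surface, had 5.65, 7.08 and 6.44, against 8.82, 10.7 and 8.77.

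In the list of cholesterol synthesis, 17 of 18 tested genes were below 0, with a median of -0.23. In 3 of the 18 all libraries of BAPN with fasudil lay below BAPN, beside 3.25% of all genes: Sc5d, Cyp51 and Dhcr7. That median was -0.12 without replicate 2 of BAPN with fasudil and -0.14 without BAPN replicate 1. The list of lipid synthesis had 14 of 19 below 0 and a median of -0.28, which was -0.81 without BAPN replicate 1, -0.53 without replicate 3 of BAPN with fasudil, -0.17 without its replicate 2, and -0.068 without BAPN replicate 3. Scd1, the stearoyl-CoA desaturase, had 257, 94.2 and 283, against 265, 617 and 545. Its log2 fold change of -1.23 was -0.71 without replicate 2 of BAPN with fasudil. None of these genes passed the threshold. Nuclear-encoded genes of oxidative phosphorylation leaned the other way, with 25 of 26 above 0 at a median of 0.17, but the groups overlapped in all of them. Their median was -0.21 without BAPN replicate 1 and 0.62 without BAPN replicate 3.

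Brown fat transcripts also varied among the BAPN libraries. Ucp1, the uncoupling protein of brown fat, had 530, 439 and 512 scaled FPKM in BAPN with fasudil, against 22.1, 131 and 449 in BAPN. The combined libraries were close together, while the BAPN libraries spread over more than an order of magnitude. Brown adipocyte markers summed to 2411, 2438 and 2699 in BAPN with fasudil, against 776, 1623 and 3739 in BAPN, so BAPN lay both below and above. The list's median log2 fold change was 0.40, and -0.12 without BAPN replicate 1 and 0.92 without BAPN replicate 3. Sums were 4347 to 9051 in fasudil and 7209 to 13094 in vehicle. The part of this fat in the metabolic differences was not tested.

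**Figure D3:**
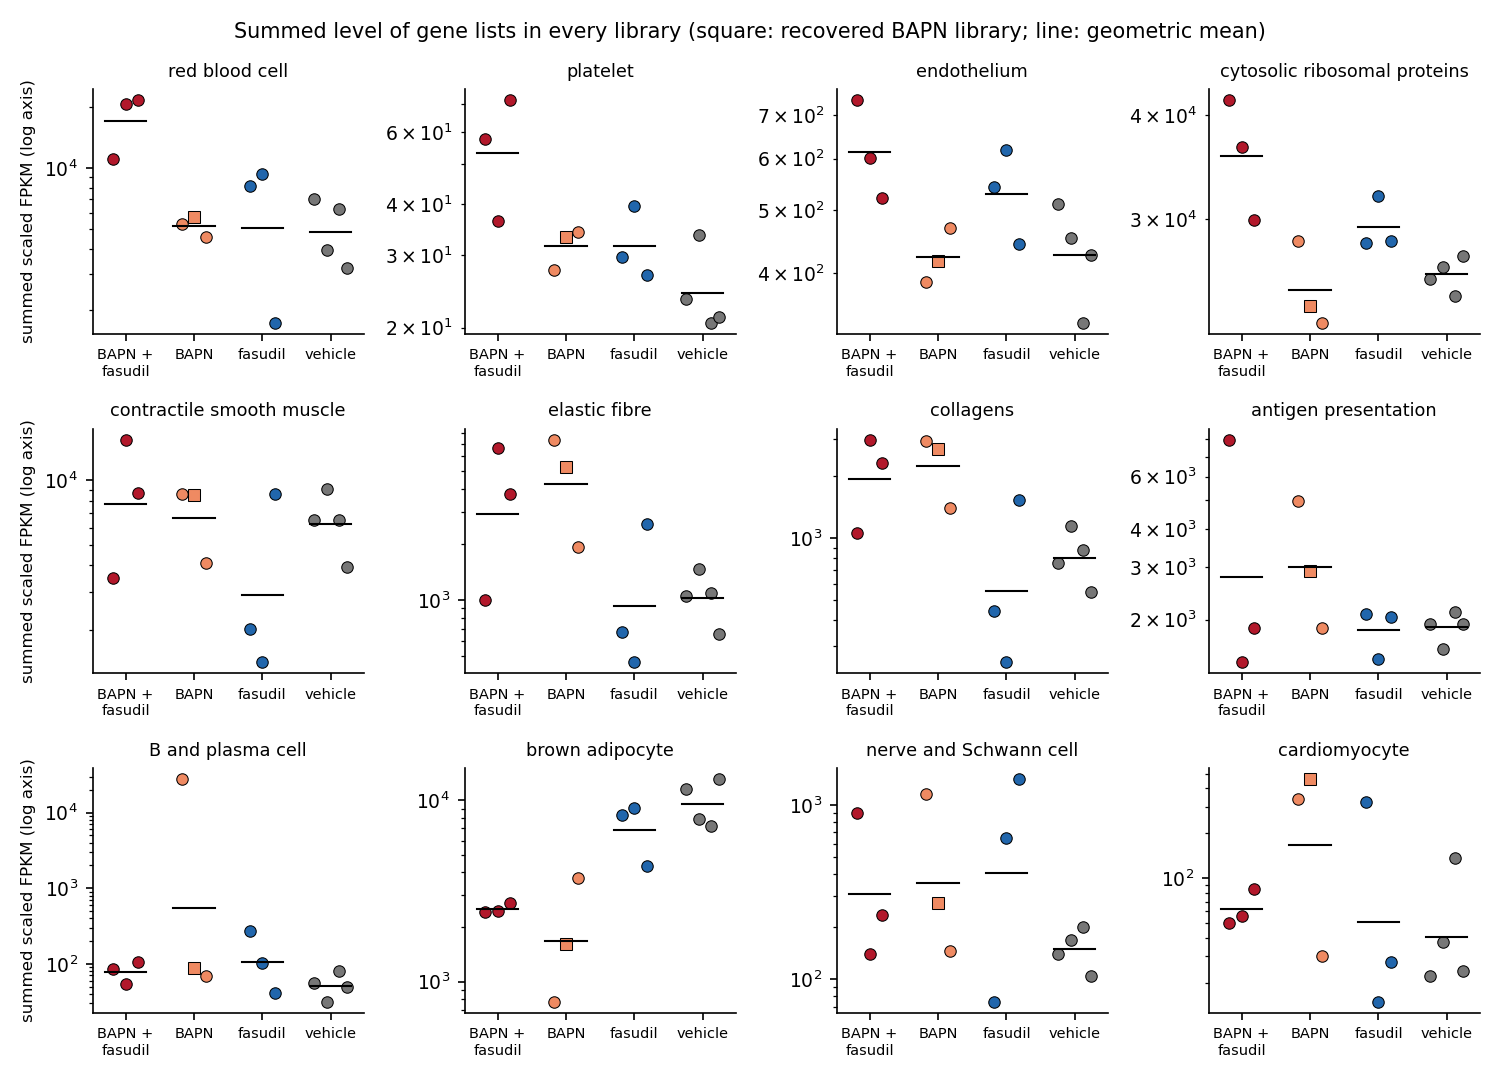
Summed scaled FPKM of 12 gene lists in each library (y axis, log scale), by group with BAPN with fasudil first. Lines are geometric means and the square is the recovered library. The groups BAPN with fasudil and BAPN do not overlap for the red blood cell, platelet, endothelium and ribosomal protein lists, while contractile smooth muscle runs from 3497 to 15459 within BAPN with fasudil.

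Cytosolic ribosomal proteins, a list added after values were seen, leaned one way throughout. All 76 genes had positive log2 fold changes, between 0.25 and 0.74 with a median of 0.51, 61 had an unadjusted limma p under 0.05 and in 45 the groups did not overlap, beside 2.68% and 5.21% of all genes. None passed the adjusted threshold. Rpsa, the laminin-binding protein of the small subunit, had 1479, 1273 and 1047 scaled FPKM in BAPN with fasudil, against 829, 770 and 728 in BAPN. Rps15 had 1431, 1357 and 1012, against 875, 728 and 660. The sum of the 76 genes was 41684, 36590 and 29926 in BAPN with fasudil, against 28257, 23608 and 22528 in BAPN, 28049 to 31990 in fasudil and 24276 to 27079 in vehicle. The median over the 76 genes lay between 0.42 and 0.63 when any 1 of the 6 libraries was left out, and was 0.27 with library quality weights. Between fasudil and vehicle it was 0.20, and 3 of the 76 had an unadjusted interaction p under 0.05.

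Transcript length moved with this difference. Among genes outside the list, the median log2 fold change was 0.15 for the 984 genes with a longest transcript of up to 1000 bases, 0.05 for 2193 genes above that and up to 2000, -0.008 for 5288 genes above that and up to 4000, and -0.03 for 4793 longer genes. Ribosomal protein genes are short, and many have processed pseudogenes that can take part of their reads. The part of transcript length in the ribosomal protein difference was not tested. Mif, a cytokine with a short transcript, and Eif6, a factor that binds the large ribosomal subunit, both chosen after their values were seen, differed by 0.63 and 0.55.

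Among the cell types of the wall, endothelial markers had a median log2 fold change of 0.37, against 0.12 for contractile smooth muscle and 0.02 for adventitial fibroblast markers. Of 16 tested endothelial genes 12 were above 0 (8 of 16 adventitial fibroblast genes). Of the endothelial genes, 6 were higher at an unadjusted limma p under 0.05, beside 2.68% of all genes. In 3 the groups did not overlap, beside 5.21% of all genes: Egfl7, Vwf and Cldn5. Vwf, von Willebrand factor, which platelets also carry as a protein, had 80.6, 81.1 and 51.9 scaled FPKM in BAPN with fasudil, against 43.9, 37.0 and 42.8 in BAPN. Egfl7, a factor secreted by endothelium, had 141, 101 and 112, against 66.3, 82.4 and 80.8. Cdh5, the cadherin of endothelial junctions, did not follow them, at 34.7, 37.7 and 39.9, against 28.0, 40.9 and 46.6. The summed level was 738, 601 and 522 in BAPN with fasudil, against 387, 417 and 469 in BAPN. The median ranged from 0.22 to 0.46 when 1 of the 6 libraries was left out. It was 0.27 between fasudil and vehicle. Adventitial fibroblast markers also summed higher in each library, to 3593, 2184 and 2413 in BAPN with fasudil, against 2112, 2096 and 2030 in BAPN. In 3 of the 16 the groups did not overlap, beside 5.21% of all genes: Dpep1, Ly6c1 and Dcn. Ly6c1, an antigen that endothelial cells also carry, had 764, 160.3 and 166, against 139, 135 and 149, so replicate 1 carried most of its difference. Dcn, decorin, a proteoglycan that binds collagen, had 566, 426 and 487, against 412, 377 and 394. None of the 16 had an unadjusted p under 0.05.

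**Figure D4:**
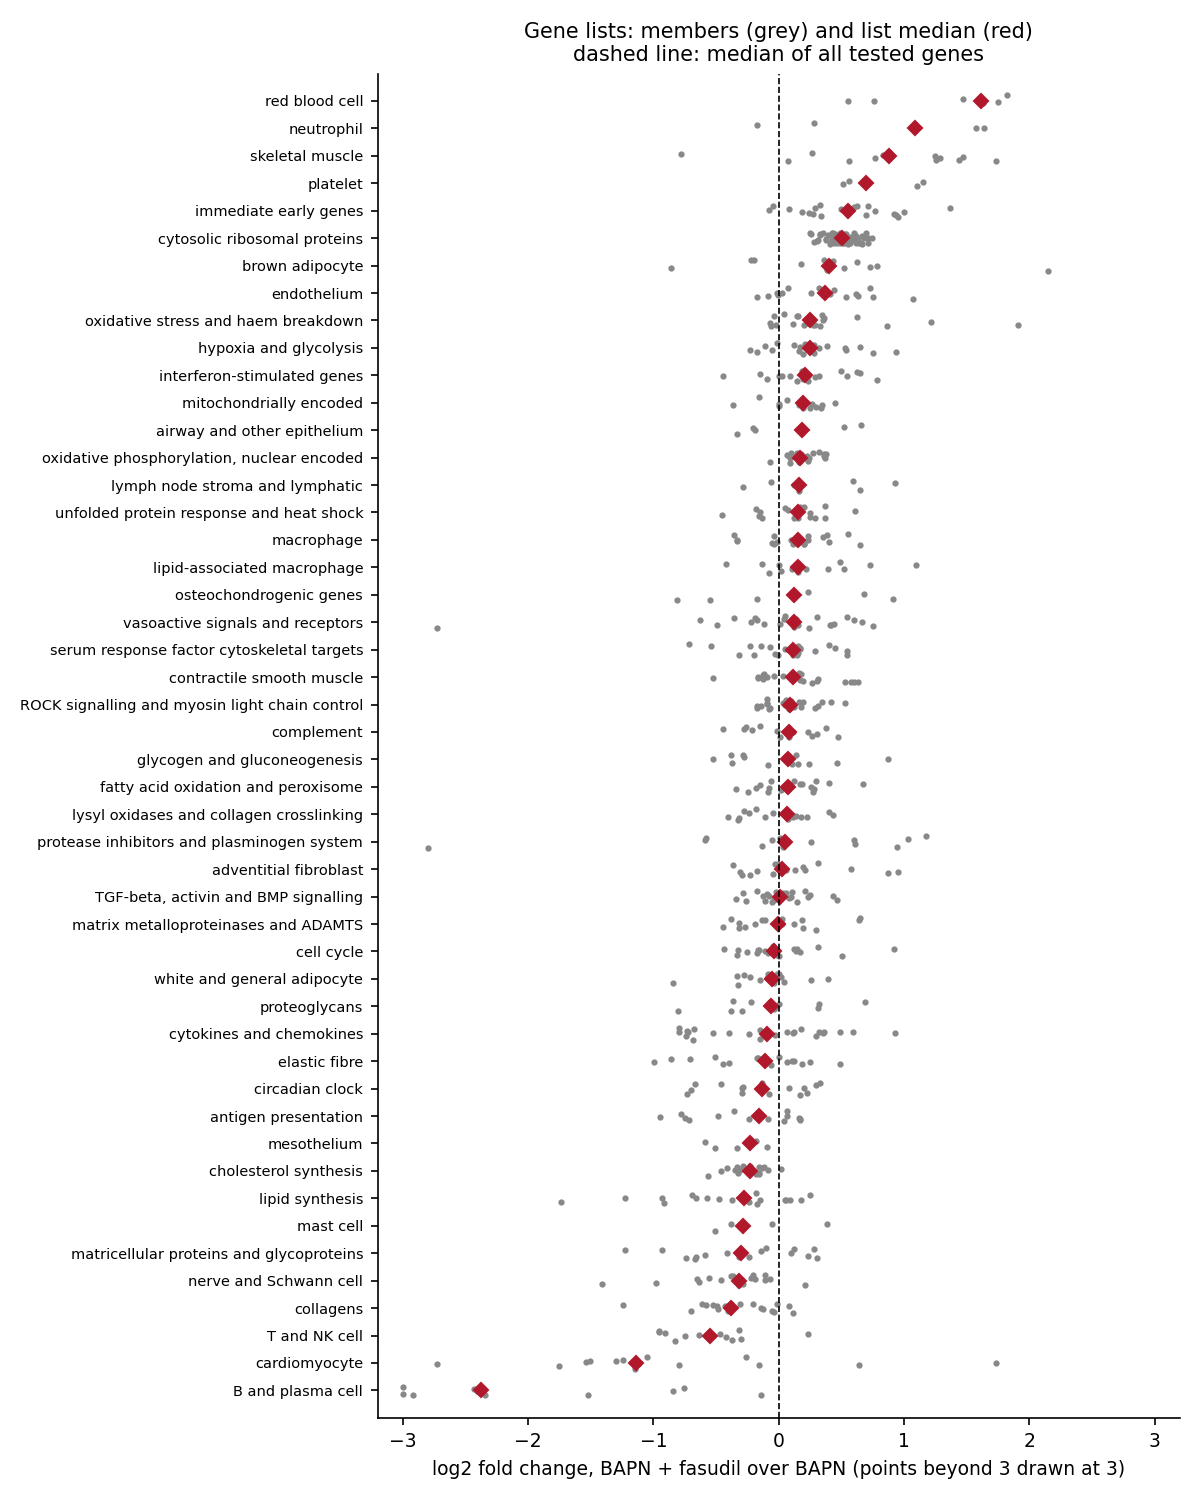
Log2 fold change of BAPN with fasudil over BAPN (x axis) for the tested members of each gene list (grey points) with the list median (red diamond). The dashed line is the median of all genes, -0.0018. Red blood cell genes lie at the top with a median of 1.61, collagens near the bottom at -0.38, and B and plasma cell genes last at -2.37.

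The enzymes and kinases the 2 drugs act on did not differ beyond the spread. Lox, the main lysyl oxidase, had 19.7, 66.5 and 53.4 scaled FPKM in BAPN with fasudil, against 101, 61.9 and 26.7 in BAPN (log2 fold change -0.41 ± 0.51, SE). Loxl1, which acts on elastin, had 38.7, 123 and 88.3, against 101, 106 and 49.7. Loxl2 (-0.32) and Loxl3 (-0.18) overlapped as widely, and Loxl4 was below the filter. Lox was thus spread over a range of several fold in each group, and the order of the groups depended on which library was left out. Rock1 had 11.7, 18.3 and 13.7, against 14.0, 19.6 and 13.2 (-0.09), and Rock2 10.2, 15.5 and 11.8, against 12.3, 12.0 and 9.74 (0.12). In the list of ROCK signalling and myosin light chain control, 18 of 26 tested genes were above 0 with a median of 0.09 (-0.037 to 0.21 when 1 of the 6 libraries was left out), and 0 had an unadjusted p under 0.05. All 3 libraries of BAPN with fasudil lay above BAPN in 2 of them and below in 1, beside 5.21% and 3.25% of all genes. Ppp1r12c, a regulatory subunit of myosin light chain phosphatase, was among the higher (88.2, 107 and 82.9, against 65.9, 77.0 and 63.9).

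Contractile genes varied widely within both groups. The list summed to 3497, 15459 and 8674 scaled FPKM in BAPN with fasudil, against 8571, 8488 and 4104 in BAPN. Replicate 1 of the combined group was the lowest of the 6 and replicate 2 the highest. The median log2 fold change over 23 genes was 0.12, and it was 0.68 without replicate 1 and -0.29 without replicate 2. Acta2 differed by 0.10 ± 0.94 (SE). Des, desmin, the muscle intermediate filament protein, was the 1 member of 23 whose groups did not overlap, beside 5.21% of all genes. It had 22.8, 28.4 and 24.9, against 14.8, 20.0 and 15.5. In the list of cytoskeletal targets of serum response factor, 14 of 23 were above 0 and the groups overlapped in all 23. Their median of 0.12 was 0.40 without replicate 1 of BAPN with fasudil and -0.12 without its replicate 2.

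Matrix genes were spread in the same way. Eln, elastin, had 294, 4599 and 2308 scaled FPKM in BAPN with fasudil, against 5542, 3559 and 943 in BAPN, a log2 fold change of -0.86 ± 1.15 (SE). Col1a1 (0.08) and Col3a1 (-0.48) also overlapped. Of 19 collagens tested, 17 were below 0 at a median of -0.38, but the median was -0.60 without BAPN replicate 3 and 0.23 without replicate 1 of BAPN with fasudil, the library with the lowest sum (1059, against 2302 to 2993 in the other 2 and 1402 to 2960 in BAPN). Col8a2, a chain of collagen VIII, which vascular cells make, was the 1 collagen of 19 without overlap, beside 3.25% of all genes that were lower in this way. Col8a2 had 0.0984, 0.410 and 0.442, against 1.26, 1.63 and 0.612. It passed the filter only through BAPN replicate 1 and the recovered library, as no library of BAPN with fasudil reached 1 FPKM. Its partner chain Col8a1 had 1.63, 5.60 and 10.4, against 15.4, 18.9 and 7.04. Comp, cartilage oligomeric matrix protein, had 5.55, 8.57 and 17.5, against 17.4, 54.4 and 13.6, and the related Thbs4 had 0.630, 0.0713 and 0.975, against 2.13, 2.04 and 1.51. Ltbp2, a protein of elastic fibres, had 14.1, 44.8 and 55.7, against 69.0, 83.8 and 51.4. Each of these 5 had an unadjusted p under 0.05, and the groups did not overlap in Col8a2 and Thbs4.

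In the smaller pathway lists described next, the genes without overlap were all higher. They were 2 of 17 for unfolded protein response and heat shock, and 3 of 14 for protease inhibitors and the plasminogen system. The crosslinking list had 2 of 17, and the share of all genes was 5.21%. Hspb1, the small heat shock protein HSP27 of contractile cells, had 170, 225 and 167 scaled FPKM in BAPN with fasudil, against 124, 133 and 109 in BAPN (log2 fold change 0.61), while its list of unfolded protein response and heat shock had 12 of 17 above 0 and a median of 0.16 (0.023 to 0.20 when 1 of the 6 libraries was left out). Xbp1, a factor of the unfolded protein response that plasma cells need, had 58.4, 65.3 and 64.1, against 140, 74.3 and 60.4, with its high value in the BAPN library rich in immunoglobulin. Plaur, the urokinase receptor, had 16.4, 9.83 and 10.2, against 9.15, 6.33 and 2.97, and the list of protease inhibitors and the plasminogen system had 9 of 14 above 0 with a median of 0.05 (-0.054 to 0.33 when 1 library was left out). Tgm2, tissue transglutaminase, which also crosslinks matrix proteins, had 86.9, 133 and 95.3, against 82.7, 82.2 and 65.8. Plod1, a lysyl hydroxylase of collagen, had 25.8, 28.8 and 25.8, against 22.3, 23.7 and 22.3. The crosslinking list that holds the last 2 had 9 of 17 above 0, so these 2 higher enzymes stood beside 8 lower members.

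TGF-β, activin and BMP genes had 14 of 25 above 0 with a median of 0.01 (-0.05 to 0.17 when 1 library was left out), and the groups overlapped in all 25. Tgfb1 had 28.3, 43.5 and 34.6, against 31.2, 30.5 and 17.6. Cell cycle genes had 7 of 20 above 0. Tyms, thymidylate synthase, was the 1 member of 20 without overlap, beside 5.21% of all genes, at 4.25, 4.33 and 4.33, against 2.75, 2.65 and 2.85. Genes of hypoxia and glycolysis had 18 of 23 above 0, beside 49.7% of all genes. In that list 3 genes were higher at an unadjusted limma p under 0.05, beside 2.68% of all genes. The list's median of 0.25 was 0.094 without BAPN replicate 1 and 0.39 without BAPN replicate 3. Egln3, a prolyl hydroxylase of the hypoxia factor HIF, had 9.86, 2.34 and 7.92, against 2.43, 1.86 and 3.75, which overlapped. Vasoactive genes had 15 of 23 above 0. Pde5a, the phosphodiesterase that degrades cyclic GMP in smooth muscle, had 11.4, 13.5 and 9.81, against 7.9, 7.92 and 6.03, and Nos2, the inducible nitric oxide synthase, had 1.57, 1.19 and 1.96, against 3.96, 2.01 and 2.12. In both the groups did not overlap, in opposite directions, and neither passed the adjusted threshold. Of the 23 vasoactive genes, 2 were higher without overlap and 1 was lower, beside 5.21% and 3.25% of all genes.

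Among leukocytes, no list separated the groups. Macrophage markers summed to 1507, 519 and 867 in BAPN with fasudil, against 1232, 773 and 538 in BAPN. Antigen presentation genes summed to 7978, 1443 and 1874, against 4964, 2900 and 1876, with a median of -0.16 that was -0.96 without replicate 1 of BAPN with fasudil, 0.29 without its replicate 2 and 0.11 without BAPN replicate 1. Neutrophil genes were at 116, 18.3 and 7.31, against 11.1, 5.08 and 8.64, with 5 of 12 tested. Replicate 1 held S100a8 at 24.2 and S100a9 at 40.7, against at most 1.55 and 2.67 in the other 2 libraries of its group. T and NK cell markers summed to 58.4, 8.75 and 18.9, against 121, 27.5 and 11.5, and Cd3e, a chain of the T cell receptor complex, had 0.719, 0.125 and 0.425, against 4.32, 1.41 and 0.565. Markers of nerve and Schwann cells summed to 900, 141 and 234, against 1157, 275 and 146. Of 17 tested, 16 were below 0 with a median of -0.32, and 3 were lower without overlap, beside 3.25% of all genes. That median was 0.28 without BAPN replicate 1 and -0.86 without replicate 1 of BAPN with fasudil. Npy, the neuropeptide of sympathetic nerves, chosen after its values were seen, had 500, 0 and 44.8, against 429, 43.2 and 0.862. Cardiomyocyte markers summed to 50.6 to 84.4 in BAPN with fasudil, against 339, 462 and 30.1 in BAPN, so that 2 of the 3 BAPN libraries were high. Mybpc3, a sarcomere protein of the heart, had 0.0591, 0.151 and 0.117, against 2.02, 3.21 and 0.102. Skeletal muscle markers summed to 144, 88.5 and 399, against 132, 84.0 and 95.6, and Myh7, the slow muscle myosin of heart and skeletal muscle, had 4.21, 1.35 and 3.62, against 0.239, 0.178 and 0.0463. Cd3e and Mybpc3 passed the filter only through BAPN libraries, and Myh7 only through BAPN with fasudil. What the cells of these lists contributed to the differences above was not tested.

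To ask whether fasudil did the same without BAPN, the difference between BAPN with fasudil and BAPN was set against that between fasudil and vehicle, which share no library. Fasudil against vehicle gave 0 genes past the limma threshold, with 1191 (8.93%) at an unadjusted p under 0.05. The test of the difference between the 2 effects called 1 gene (0.0075%), with 822 (6.16%) at an unadjusted p under 0.05.

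Sprr1a differed by 1.78 with BAPN and by 0.10 without it, and the difference of 1.68 ± 0.22 (SE) missed the threshold (limma adjusted p = 0.0622). For the red blood cell list the median was 1.61 with BAPN and -0.02 without, and 4 of the 7 genes had an unadjusted interaction p under 0.05. The list summed to 8169, 9342 and 1726 scaled FPKM in the fasudil libraries, on both sides of the vehicle libraries (3209 to 7021). For cholesterol synthesis the medians were -0.23 and 0.46, with 5 of 18 at an unadjusted interaction p under 0.05. Sc5d, for instance, was lower by 0.46 in BAPN with fasudil than in BAPN, and had 12.5 to 23.8 scaled FPKM in fasudil, against 8.54 to 11.8 in vehicle. None of these members passed the adjusted test of the difference. Igfbp3 was higher in both comparisons, by 1.14 and 1.67. Gpnmb, a glycoprotein of lipid-laden macrophages, was likewise higher in both, with 10.3, 10.1 and 10.8, against 5.45, 6.51 and 5.72 in BAPN, and 3.99 to 11.6 in fasudil, against 0.876 to 2.37 in vehicle. The list of such macrophages that holds Gpnmb had 10 of 13 tested genes above 0 with BAPN, at a median of 0.15. Without BAPN the median of that list was 0.0084.

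**Figure D5:**
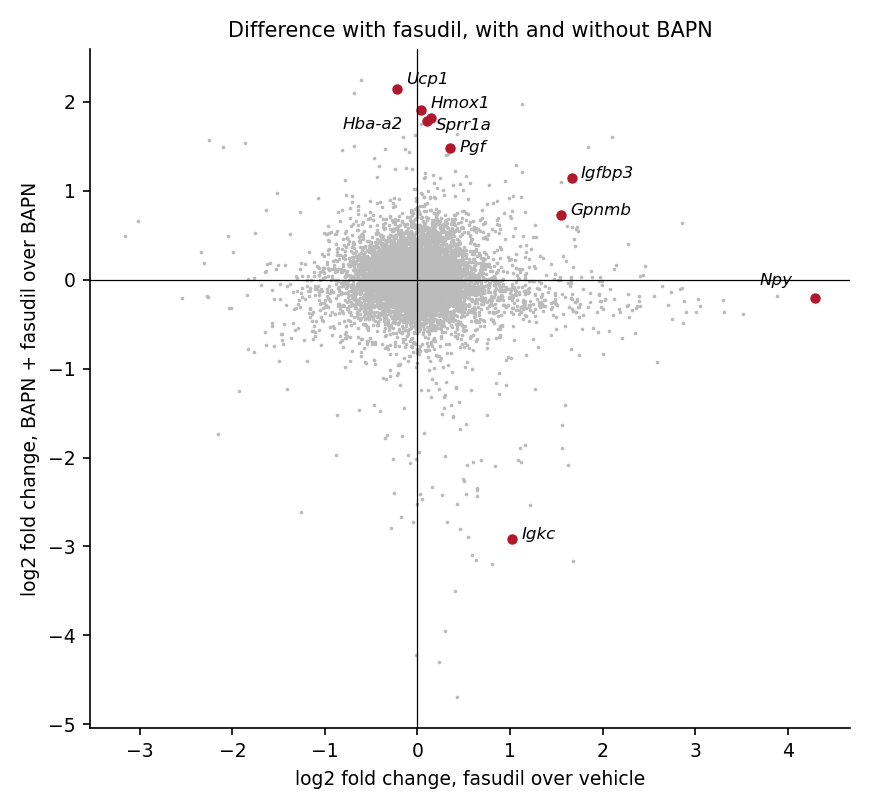
Log2 fold change of fasudil over vehicle (x axis) against that of BAPN with fasudil over BAPN (y axis) for the 13338 tested genes, with named genes in red. Sprr1a, Hba-a2 and Hmox1 lie near 0 on the x axis and between 1.78 and 1.91 on the y axis.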

How the data were processed

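Bowtie2, RSEM and DESeq2 appear, without versions, in the submitters' processing notes, as do the builds GRCm39 and mm10. Values were deposited as FPKM by the authors, with the authors' mean FPKM per group. A deposited score, the longest transcript length, only grouped genes. Of 28350 identifiers shared with GENCODE M21, 2.53% start where GRCm38 has them, so positions follow the deposited table, taken as GRCm39. BAPN replicate 2 was recovered as 3 times the BAPN mean minus replicates 1 and 3, and 1955 negative values were set to 0. FPKM were scaled by a trimmed mean of log ratios (30% of ratios and 5% of levels trimmed). Genes with at least 1 FPKM in 2 of the 6 libraries were tested on log2(scaled FPKM + 1) with limma 3.58.1 (trend, robust) in R 4.3.3, in 1 fit of 4 groups, with Benjamini-Hochberg adjustment. The fit was tested on simulated data. Named genes were Lox to Loxl4, Rock1, Rock2, Acta2, Myh11, Eln, Col1a1, Col3a1, the 15 leading genes each way and up to 2 per list by p, where their list is described. Members and lists were chosen with earlier results of these data known. The gene called in the test of the difference, and a few others, are not reported here. Read depth is unknown, which limits precision for low genes. Alternatives covered scaling, pseudocount, filter, weights, prior, groups fitted, replicate block and each library left out. Replicate numbers did not pair the samples.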

Additional observations from a re-analysis of the deposited data

Results flagged for a closer look

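The pseudogene Rpl36a-ps3 was singled out for 1 vehicle library far from the others. The vehicle libraries had 46.3, 28.7, 29.4 and 26.3 scaled FPKM, and the gap above the next library was 0.849 of the whole range. Chance gives such a gap in about 5% of groups of this size. The gap was looked for in Sprr1a and in the 15 leading genes each way, so 1 such gene can arise by chance.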

How the results depend on the processing

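Between BAPN with fasudil and BAPN, limma's count of 1 gene became 0 with a pseudocount of 0.1 (551 at an unadjusted p under 0.05) and 0 in a fit of the 6 libraries alone (313), and 7 without a filter (3 higher and 4 lower of 24495 genes, Sprr1a among them). Leaving out 1 library gave 1 to 3 genes: Sprr1a in all 13 fits, joined by Prnd without BAPN with fasudil replicate 1 (2 genes), by Pgf and Gm15516 without its replicate 2 (3 genes), and by Traj44 and Gm6020 without BAPN replicate 3 (3 genes). For the test of the difference between the fasudil effects, the count of 1 became 4 without a filter, 2 with 1 FPKM required in 3 libraries and 4 with library quality weights, and leaving out 1 library gave 0 (without fasudil replicate 3, 1227 at an unadjusted p under 0.05) to 3 (without fasudil replicate 1), and 2 without BAPN with fasudil replicate 1. With the replicate number as a block the counts were 0 (455 at an unadjusted p under 0.05, Sprr1a at an adjusted p of 0.134) and 0 (570). The deviations of same-numbered libraries of the 2 groups correlated at 0.0857, 0.237 and -0.0148, so the numbers were not taken as pairs. The causes of these shifts were not tested.

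Of 82 named genes, some whose groups overlapped changed sign. Col1a1 was -0.0091 without scaling, and library quality weights gave 0.21 for Loxl1, 0.19 for Loxl3, -0.80 for Igtp and 0.40 for Npy. On leaving out 1 library the log2 fold changes ran from -0.92 to 0.14 for Lox, -0.46 to 0.39 for Loxl1, -0.56 to 0.0082 for Loxl2, -0.50 to 0.30 for Loxl3, -0.24 to 0.10 for Rock1, -0.024 to 0.27 for Rock2, -0.55 to 0.98 for Acta2, -0.31 to 0.74 for Myh11, -1.67 to 0.33 for Eln, -0.26 to 0.51 for Col1a1, -0.074 to 1.82 for S100a8, -1.07 to 1.55 for Igtp, -2.28 to 2.22 for Npy and -4.49 to 0.11 for Igkc. Without read counts, the counting error of low genes such as Sprr1a could not be given.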
